A study of Mus musculus with 18 samples.

Results

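Mouse NIH3T3 fibroblasts were compared at the last time sampled under each of 2 stresses: 3 samples after 135 min of heat shock (HS) and 3 samples after 405 min of tunicamycin (Tu), 6 of the 18 samples of the series. The comparison was chosen by its labels alone (HS 135 min replicates 1 to 3 against Tu 405 min replicates 1 to 3), with estimated read counts joined by gene name, and it covered 12731 of 20207 genes. HS samples were moved from 37 to 42 °C without drug, Tu samples stayed at 37 °C with 5 µM tunicamycin, and 3 untreated samples at 37 °C, taken at 0 min, served as the control level for both. Per the study's methods, every group carried the same stably integrated fusion of green fluorescent protein to a destabilizing domain (DD-GFP), in cells sorted for high fluorescence, and the ligand S1 that keeps this domain folded was present throughout, so the unstressed samples also expressed a foreign protein. The labels do not say whether the 3 samples of a group were separate cultures, so p-values measure the spread between these samples, which may be technical. Heat was not carried to the last Tu time because many cells died, per the study, so stress and time differ together in this comparison and cannot be told apart within it. Levels at HS 45 min, Tu 45 min and Tu 135 min are given where they show when a difference was present.

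The cytosol and the endoplasmic reticulum (ER) keep separate chaperone systems. In heat-stressed cells, heat shock factor 1 (HSF1) is freed from chaperones, binds heat shock elements and drives HSP70, HSP90, J-domain and small heat shock protein genes, whose products hold and refold proteins in the cytosol and nucleus. Tunicamycin blocks the first step of N-linked glycosylation, so that new secretory proteins misfold in the ER. The ER sensors IRE1, PERK and ATF6 then act through XBP1, ATF4 and cleaved ATF6 on genes for ER chaperones, oxidoreductases, degradation, glycosylation and transport. PERK shares its target, the initiation factor eIF2, with kinases that sense other stresses, and this shared branch is called the integrated stress response.

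At these times, the cytosolic chaperone genes and the ER chaperone genes lay on opposite sides of the comparison. Hspa1b and Hspa1a, the inducible HSP70 genes, were 328 and 336 times as high at HS 135 min as at Tu 405 min, and Creld2 and Hspa5, which encode ER chaperones, were 17.7 and 6.6 times as high at Tu 405 min as at HS 135 min. Of the 12731 genes, 2686 (21.1%) were higher at HS 135 min and 2278 (17.9%) were higher at Tu 405 min at an adjusted p under 0.05, and 7767 were not called. These shares are the background against which every count of called genes below is read. Whether the samples of the groups overlap is given only to describe single genes. No share of non-overlapping genes over all genes is given, so a lack of overlap does not show that a gene or list stands out. The median log2 fold change over all genes was 0.02, and it was -0.10 when libraries were scaled by total counts alone. A positive log2 fold change means higher at HS 135 min throughout, all p-values are those of edgeR (quasi-likelihood), adjusted by Benjamini-Hochberg over the genes tested, and levels are CPM (read counts adjusted for library depth by TMM over all 18 samples), compared between samples of a gene and not between genes.

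The 6 samples held 54.8 to 62.9 M reads on genes. The Tu 405 min samples were close to each other, with correlations of log2 CPM of 0.994 to 0.998, and the HS 135 min samples were less so, at 0.926 to 0.986, with replicates 1 and 2 the farthest apart. Deviations of the HS 135 min samples from their mean followed the GC content of transcripts, with Spearman's rho across 12431 genes of -0.66 in replicate 1, 0.68 in replicate 2 and -0.27 in replicate 3. For replicates 1 to 3 it was -0.40, 0.31 and 0.29 at Tu 405 min and 0.53, -0.46 and -0.50 in control. The log2 fold change between the stresses had a rho of 0.19 with GC content and 0.33 with transcript length. Genes higher at HS 135 min had longer transcripts (median 4180 bases) than genes higher at Tu 405 min (2208 bases), against 3041 bases over the tested genes with a transcript, and a part of length in the results was not tested. The methods name 2 ways of making libraries without saying which samples had which. Leaving out HS 135 min replicate 3 gave 1693 and 1131 genes in place of 2686 and 2278, leaving out a Tu 405 min replicate gave 1499 to 1753 and 1142 to 1477, and leaving out HS 135 min replicate 1 or 2 raised both counts, up to 3482 and 3359. Each list below therefore carries the range of its counts over these 6 fits.

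The genes that mark each stress lay on the side their labels name. Hsph1, an HSP110 nucleotide exchange factor for HSP70, stood at 2717, 1242 and 2124 CPM at HS 135 min and 108, 95.8 and 95.4 CPM at Tu 405 min. Hspa5, the ER lumenal HSP70 known as BiP, stood at 1339, 1416 and 1269 CPM at HS 135 min and 9292, 8805 and 8938 CPM at Tu 405 min. Ddit3, which encodes the stress transcription factor CHOP, stood at 257, 513 and 309 CPM and 2165, 2864 and 2859 CPM. In each of these genes the 3 samples of one stress lay wholly above the 3 of the other. The log2 fold changes were 4.37 for Hsph1 (SE 0.32, adjusted p 0.000367), -2.72 for Hspa5 (SE 0.20, adjusted p 0.000367) and -2.84 for Ddit3 (SE 0.32, adjusted p 0.00101). Fibroblast markers were present throughout: 9 of 10 reached 1 CPM in every sample, while the summed level of the epithelial, endothelial, muscle and neural markers stayed at or under 1.29 CPM in every sample and that of 5 leukocyte markers at 10.7 to 14.4 CPM. The summed fibroblast markers themselves ranged over 46034 to 78102 CPM at HS 135 min and 21007 to 22937 CPM at Tu 405 min, with 8 of the 9 tested higher at HS 135 min.

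Hspa1b (chr17:35093374-35096183 in mm9) encodes inducible HSP70, which binds exposed hydrophobic stretches of client proteins. It stood at 263, 1142 and 1214 CPM at HS 135 min and 2.85, 2.61 and 2.66 CPM at Tu 405 min, with 6.3, 5.5 and 5.47 CPM in the control samples. The groups did not overlap, and replicate 1 was the lowest of the heat samples by a wide margin. Its log2 fold change was 8.36 (SE 0.69, adjusted p 0.000461). Hspa1a (chr17:35106304-35109101), its near-identical neighbour, stood at 74.6, 312 and 369 CPM against 0.836, 0.706 and 0.738 CPM, a log2 fold change of 8.39 (SE 0.71, adjusted p 0.000477). The division of reads between this pair is uncertain because the counting could split them.

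Of 17 tested genes of the cytosolic HSP70 system, 10 (58.8%) were higher at HS 135 min and none higher at Tu 405 min, with a median log2 fold change of 0.90 (8 to 11 and 0 to 2 over the leave-one-out fits). The list also holds Hspa13, an HSP70 of microsomes and not of the cytosol. Hspa8, the constitutive HSC70, was at 9879, 8893 and 8563 CPM against 1645, 1451 and 1516 CPM, with 4205, 4859 and 4731 CPM in control, so that its log2 fold change of 2.59 (adjusted p 0.000389) combined 0.99 against control at HS 135 min and -1.56 at Tu 405 min. Bag3, a nucleotide exchange factor that links HSP70 to small heat shock proteins and autophagy, was at 770.2, 2206 and 2073 CPM against 150, 175 and 167 CPM, a log2 fold change of 3.38 (adjusted p 0.00131), and was above control in both stresses (4.17 and 0.83). Neither gene's groups overlapped. The lowest log2 fold change of the list was -0.43.

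Small heat shock proteins hold unfolding clients without using ATP. Hspb1, known as HSP25 in mouse, stood at 12.1, 56.7 and 63.7 CPM at HS 135 min and 0.0315, 0.106 and 0.072 CPM at Tu 405 min. Only 2, 6 and 4 reads lay behind the Tu values, and 7, 1 and 6 behind the control values, against 767 to 3623 at HS 135 min, so the log2 fold change of 9.31 (SE 0.87, adjusted p 0.000626) rests on counts near the limit of detection. Hspb8, the partner of BAG3, stood at 277, 261 and 283 CPM against 65.3, 63.8 and 60.9 CPM, a log2 fold change of 2.13 (adjusted p 0.000367). Cryab, the alpha-B crystallin gene, stood at 399, 362 and 247 CPM against 98.1, 128 and 131 CPM (1.52, adjusted p 0.00287). The groups did not overlap in any of these 3 genes, and Hspb1 alone varied more than 5-fold among the heat samples. In all, 4 of 6 tested small HSP genes were higher at HS 135 min, with a median of 1.83 (3 to 5 over the leave-one-out fits), and none was higher at Tu 405 min. Hspb3, Hspb9 and Cryaa had too few reads to be tested.

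J-domain proteins bring clients to HSP70. Of 17 genes 6 were higher at HS 135 min (35.3%, 5 to 7 over the leave-one-out fits) and 4 higher at Tu 405 min (23.5%, 0 to 4), with a median of -0.05. The Tu share lies near the 17.9% of all genes. Dnajb1, the classical heat-inducible HSP40, was the tightest, at 317, 332 and 353 CPM against 38.2, 33.8 and 34.4 CPM (log2 fold change 3.26, SE 0.15, adjusted p 0.000299). Dnaja4 was at 87.7, 205 and 188 CPM against 5.66, 6.54 and 6.39 CPM (4.72, adjusted p 0.000389), and Dnajb4 at 47.4, 5.58 and 34.7 CPM against 3.12, 2.68 and 2.52 CPM (3.41, adjusted p 0.00859). In all 3 genes the groups were apart, but Dnajb4 varied by more than 8 times among the heat samples, with replicate 2 the lowest. On the other side Dnajc2, Dnajc8 and Dnajb5 were higher at Tu 405 min, with log2 fold changes of -1.62, -1.29 and -0.99, and each of these 3 calls was lost without HS 135 min replicate 3 and without Tu 405 min replicate 2 or 3 (adjusted p up to 0.12, 0.0591 and 0.0699).

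HSP90 matures kinases and steroid receptors with the help of cochaperones, and 8 of 17 genes of this machine were higher at HS 135 min against 2 higher at Tu 405 min, with a median of 0.58 (6 to 9 and 1 to 4 over the leave-one-out fits). Fkbp4, a peptidyl-prolyl isomerase of the steroid receptor complex, was at 1061, 2788 and 1859 CPM against 468, 493 and 451 CPM (2.04, adjusted p 0.00438). St13, which encodes the HSP70-interacting protein HIP, was at 556, 712 and 752 CPM against 180.1, 169 and 161 CPM (2.01, adjusted p 0.000565), and Ahsa2, an HSP90 ATPase activator homologue, at 101, 103 and 100 CPM against 30.1, 32.3 and 28.3 CPM (1.77, adjusted p 0.00046). All 3 were apart between the groups, with Fkbp4 the most variable. Of the 2 HSP90 genes, the constitutive Hsp90ab1 was at 9324, 8433 and 8334 CPM against 3619, 3513 and 3108 CPM (1.37, adjusted p 0.00223), while the inducible Hsp90aa1 was at 2010.2, 454 and 1327 CPM against 412, 383 and 403 CPM (1.68, adjusted p 0.0275) and its call was lost without HS 135 min replicate 3 or any 1 of the Tu 405 min replicates (adjusted p up to 0.0929). Ppid, a cyclophilin, and Sugt1, a cochaperone, were higher at Tu 405 min, with log2 fold changes of -1.36 and -1.13, and the call of Ppid was lost without HS 135 min replicate 3 or Tu 405 min replicate 2 or 3 (adjusted p up to 0.0539).

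Other folding genes are given beside 21.1% and 17.9% of all genes, and with 8 subunits the counts of TRiC do not set it apart. None of the 8 subunits of TRiC, the cytosolic ring chaperonin that folds actin and tubulin, was higher at HS 135 min. One subunit (12.5%), Cct4, was higher at Tu 405 min (-0.65, adjusted p 0.0197, lost without HS 135 min replicate 3 or any 1 Tu 405 min replicate, with an adjusted p up to 0.0958). Cct2 varied from 83.5 to 432 CPM among the heat samples alone, and the medians of the list ran from -0.66 to -0.25 over those fits, with 2 subunits higher at HS 135 min without HS 135 min replicate 2 and 5 higher at Tu 405 min without HS 135 min replicate 1. Of 16 mitochondrial chaperones and proteases, 1 was higher at HS 135 min (6.25%) and 6 higher at Tu 405 min (37.5%), with a median of -0.71 (0 to 2 and 1 to 10). Hspe1, the mitochondrial HSP10 gene, was at 528, 543 and 612 CPM against 257, 367 and 328 CPM (0.85, adjusted p 0.0118, 0.0573 at the highest, lost without HS 135 min replicate 3 or Tu 405 min replicate 3). Lonp1, the matrix protease, was at 301, 558 and 397 CPM against 873, 922 and 798 CPM (-1.02, adjusted p 0.0171, up to 0.0777, lost without HS 135 min replicate 3 or any 1 Tu 405 min replicate). The groups were apart in both genes, in opposite directions.

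Of the 5 genes for heat shock factors and their regulator, 1 was called, higher at HS 135 min, with a median of -0.13 (0 to 1 higher at HS 135 min and 0 to 1 higher at Tu 405 min over the leave-one-out fits). Hsf1, the main heat shock factor, was at 89.3, 169 and 139 CPM against 173, 193 and 189 CPM, with 117, 99.4 and 94.9 CPM in control, and its log2 fold change of -0.46 did not pass (adjusted p 0.176, 95% interval -1.03 to 0.11). Hsf2, Hsf4 and Hsbp1, which encodes a heat shock factor binding protein, had log2 fold changes of -0.35, -0.13 and 0.04 that did not pass. Hsf5 was called higher at HS 135 min (1.93, adjusted p 0.0253) on 4 to 11 reads a heat sample and 1 to 4 reads a Tu sample, and the call was lost without HS 135 min replicate 3 or Tu 405 min replicate 2 or 3 (adjusted p up to 0.0924).

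**Figure D1:**
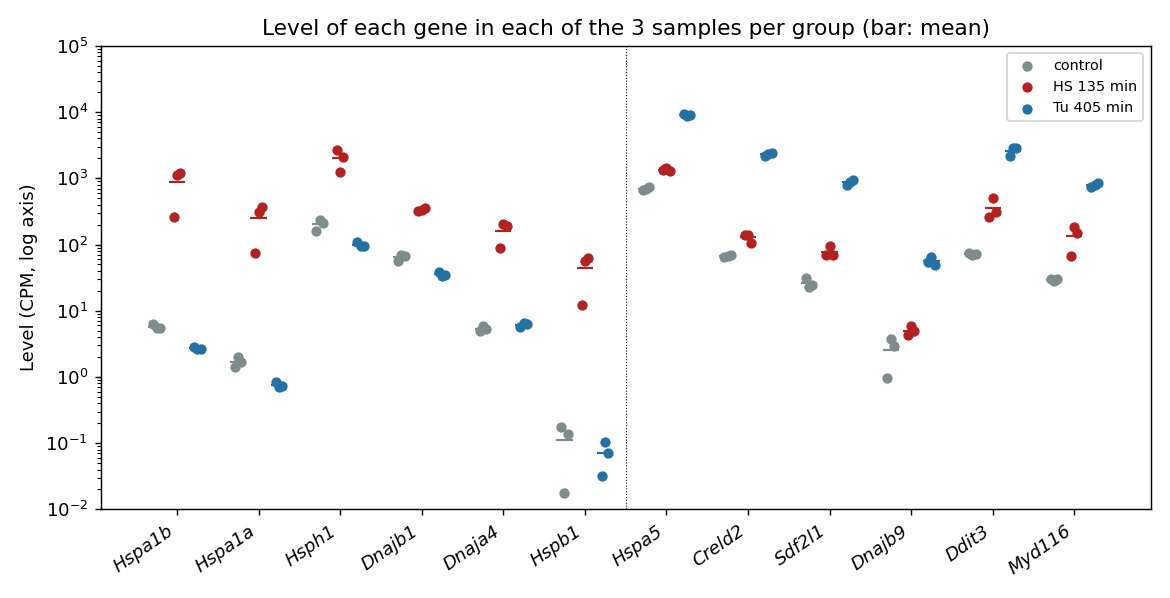
Level of 12 genes in CPM on a log axis, with the 3 samples of control (grey), HS 135 min (red) and Tu 405 min (blue) as points and the group mean as a bar. Left of the dotted line all heat samples of the 6 cytosolic chaperone genes lie above all Tu samples, as for Hspa1b at 873 ± 529.8 against 2.71 ± 0.128 CPM (mean ± SD, n = 3), and right of it all Tu samples of the 6 ER and integrated stress response genes lie above all heat samples, as for Hspa5 at 1341 ± 73.8 against 9011 ± 252 CPM.

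The promoters of the genes with the largest differences are shown because the 2 responses are known to act through different short DNA elements. The 150 bases before the RefSeq start are given for the 3 called members with the largest log2 fold change in each of 3 groups (GRCm38.p6, 5′ to 3′ on the gene's strand), with any match in capitals to the heat shock element (GAANNTTCNNGAA or TTCNNGAANNTTC), the ER stress element (CCAAT and CCACG with 9 free bases between) or the C/EBP-ATF element (TGATGNAA) on either strand. The window of Hspb1 lies on chr5:135887769-135887918, Hspa1a on chr17:34972157-34972306 and Hspa1b on chr17:34959239-34959388:
Hspb1: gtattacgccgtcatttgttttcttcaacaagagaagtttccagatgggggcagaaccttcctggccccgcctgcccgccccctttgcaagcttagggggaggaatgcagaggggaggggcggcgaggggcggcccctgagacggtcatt
Hspa1a: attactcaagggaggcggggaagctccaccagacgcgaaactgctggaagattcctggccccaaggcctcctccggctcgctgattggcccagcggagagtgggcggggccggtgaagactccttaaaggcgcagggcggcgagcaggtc
Hspa1b: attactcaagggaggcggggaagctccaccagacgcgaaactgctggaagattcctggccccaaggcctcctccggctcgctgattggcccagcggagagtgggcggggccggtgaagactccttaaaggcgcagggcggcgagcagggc
None of these windows, nor the 250 bases before each start, held a full match, which says only that these exact letters are not there. Hspa1a and Hspa1b differed at 1 of these 150 bases. The ER chaperone genes Creld2 (chr15:88819496-88819645), Sdf2l1 (chr16:17132384-17132533) and Dnajb9 (chr12:44210069-44210218) had 1 match among them, an ER stress element on the opposite strand of Creld2:
Creld2: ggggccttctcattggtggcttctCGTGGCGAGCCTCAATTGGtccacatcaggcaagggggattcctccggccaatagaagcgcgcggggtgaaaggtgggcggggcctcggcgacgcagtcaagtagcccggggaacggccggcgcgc
Sdf2l1: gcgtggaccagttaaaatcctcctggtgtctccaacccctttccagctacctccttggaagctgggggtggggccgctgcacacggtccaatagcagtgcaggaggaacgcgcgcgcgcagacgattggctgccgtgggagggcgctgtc
Dnajb9: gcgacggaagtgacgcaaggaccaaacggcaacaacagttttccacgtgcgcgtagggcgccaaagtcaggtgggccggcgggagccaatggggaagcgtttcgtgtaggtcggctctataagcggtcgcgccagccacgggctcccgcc
The integrated stress response genes Ddit3 (chr10:127290643-127290792), Myd116 (RefSeq symbol Ppp1r15a, chr7:45526269-45526418) and Nupr1 (chr7:126625471-126625620) had 1 match, a C/EBP-ATF element on the opposite strand of Nupr1:
Ddit3: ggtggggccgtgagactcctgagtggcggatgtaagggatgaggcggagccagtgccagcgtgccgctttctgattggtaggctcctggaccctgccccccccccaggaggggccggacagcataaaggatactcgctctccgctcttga
Myd116: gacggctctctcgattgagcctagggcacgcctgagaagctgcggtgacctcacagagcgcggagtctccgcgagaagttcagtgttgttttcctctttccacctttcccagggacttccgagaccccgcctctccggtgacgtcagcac
Nupr1: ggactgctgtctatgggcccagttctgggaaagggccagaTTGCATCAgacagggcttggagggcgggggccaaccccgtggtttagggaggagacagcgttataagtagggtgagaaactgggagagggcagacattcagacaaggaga

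Over the 250 bases before the start, 10059 of the 12731 tested genes (79.0%) had a promoter in the RefSeq table. The ER stress element was in 11 of 1845 genes higher at Tu 405 min (0.596%), in 2 of 2042 genes higher at HS 135 min (0.0979%), in 19 of all 10059 tested genes (0.189%) and in 37 of all 32851 promoters of the table (0.113%). It was in 6 of 26 ER chaperone genes with a promoter (23.1%). The heat shock element was in 12 of the 2042 genes higher at HS 135 min (0.588%), in 4 of the 1845 higher at Tu 405 min (0.217%), in 46 of all tested genes (0.457%) and in 0.466% of all promoters. It was in none of the 14 HSP70 system genes, 12 HSP90 genes and 4 small HSP genes with a promoter, and in 1 of 15 J-domain genes (6.67%), Dnajb6, which was not called between the stresses (log2 fold change -0.38). The C/EBP-ATF element was in 3.04% of genes higher at Tu 405 min, 2.20% of genes higher at HS 135 min, 2.51% of all tested genes and 3.45% of all promoters, and in 6 of 20 integrated stress response genes (30.0%). A gene was counted once however many sites it held, and no test was made of these shares. A match is not a bound site.

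The 6 ER chaperone genes with an ER stress element are shown by their sites, written in the direction of the element with the fixed bases in capitals and the 9 free bases in lower case (GRCm38.p6). They lie at chr2:34772025-34772043 for Hspa5, chr10:86705638-86705656 and chr10:86705533-86705551 for Hsp90b1, chr11:50325800-50325818 for Canx, chr8:84847075-84847093 for Calr, chr14:118937827-118937845 for Dnajc3 and chr15:88819520-88819538 for Creld2:
Hspa5: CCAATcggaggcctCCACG
Hsp90b1: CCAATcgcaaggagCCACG
Hsp90b1: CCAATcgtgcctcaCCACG
Canx: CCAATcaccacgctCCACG
Calr: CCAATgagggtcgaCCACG
Dnajc3: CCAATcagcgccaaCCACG
Creld2: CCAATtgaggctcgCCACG
Of these 6 genes 5 were higher at Tu 405 min: Creld2, Hspa5, Dnajc3, Hsp90b1 and Calr, with log2 fold changes of -4.15, -2.72, -2.68, -2.16 and -1.63. Canx, the membrane lectin calnexin, carried the element and was at 742, 492 and 680 CPM against 754, 542 and 471 CPM, with overlapping groups and a log2 fold change of 0.14 (adjusted p 0.681, 95% interval -0.43 to 0.70).

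ER chaperones lay mostly on the Tu side: 17 of 30 were higher at Tu 405 min (56.7%) and 2 higher at HS 135 min, with a median log2 fold change of -0.97 (15 to 19 and 0 to 5 over the leave-one-out fits). Creld2, an ER protein with disulfide isomerase activity, stood at 141, 139 and 105 CPM at HS 135 min and 2179, 2356 and 2406 CPM at Tu 405 min, a log2 fold change of -4.15 (SE 0.22, adjusted p 0.000367). Sdf2l1, a cochaperone of BiP, stood at 69, 94.6 and 69 CPM against 805, 873 and 938 CPM (-3.47, SE 0.21, adjusted p 0.000367). The groups were far apart in both genes, and within each group the samples differed by less than 2-fold. Dnajb9, the ER J-domain protein that recruits BiP to IRE1, was at 4.25, 5.96 and 4.89 CPM against 55.4, 65.1 and 49.5 CPM (-3.47, adjusted p 0.000367). Manf, a secreted ER stress protein, Hyou1, the ER HSP110, and Hsp90b1, the ER HSP90, were higher at Tu 405 min, with log2 fold changes of -2.94, -2.40 and -2.16.

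Some ER genes were also above control under heat. Against control, Creld2, Sdf2l1, Hyou1 and Hspa5 had log2 fold changes of 0.93, 1.56, 1.08 and 0.96 at HS 135 min (adjusted p 0.0339, 0.0185, 0.0292 and 0.0312), beside 5.13, 5.08, 3.53 and 3.73 at Tu 405 min, both measured against the same control samples. In the test of HS 135 min against control 605 genes (4.75%) were higher and 336 (2.64%) lower, and 7 of the 30 ER chaperones were among the higher ones. Those calls are fragile: leaving out control replicate 2 or 3 or HS 135 min replicate 3 left 12 and 3, 10 and 1, or 11 and 0 genes, while leaving out HS 135 min replicate 1 gave 1535 and 932. In the test of Tu 405 min against control 2965 genes (23.3%) were higher and 2995 (23.5%) lower, and 23 of the 30 ER chaperones were higher. Over time, mean Hspa5 was 692 CPM in control, 662 at HS 45 min and 1341 at HS 135 min, and 935, 415 and 9011 CPM at Tu 45, 135 and 405 min. Mean Creld2 was 67.3 CPM in control, 62.8 and 128 CPM at HS 45 and 135 min, and 72.8, 55.3 and 2314 CPM at Tu 45, 135 and 405 min, so at the shared time of 135 min both genes had the higher mean under heat, a difference that was not tested.

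**Figure D2:**
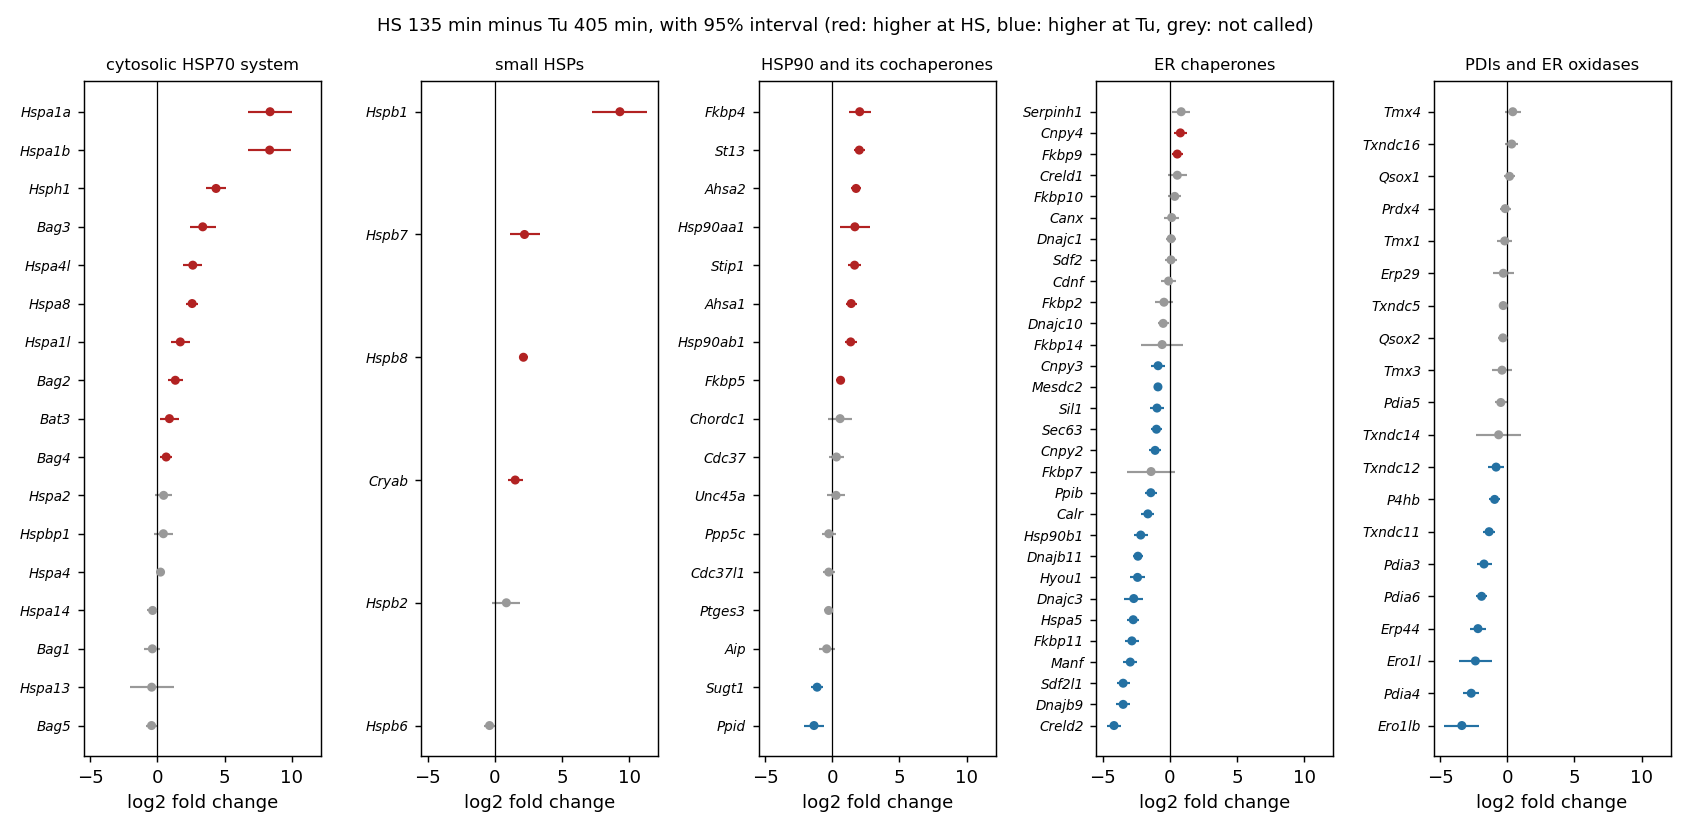
Log2 fold change of HS 135 min minus Tu 405 min for each tested member of 5 chaperone lists, with its unadjusted 95% interval as a bar. Red points were called higher at HS 135 min (10 in the HSP70 panel, 4 in the small HSP panel and 8 in the HSP90 panel), blue points were called higher at Tu 405 min (17 ER chaperones and 9 PDIs and oxidases), and grey points were not called after adjustment.

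Disulfide exchange, degradation and sensing in the ER followed the chaperones. Of 20 protein disulfide isomerases (PDIs) and ER oxidases, 9 were higher at Tu 405 min and none higher at HS 135 min, with a median of -0.56 (7 to 12 and 0 to 1 over the leave-one-out fits). Pdia4 stood at 464, 260.4 and 319 CPM against 2428, 2187 and 2188 CPM (-2.68, adjusted p 0.000641), and Ero1lb, an oxidase that recharges PDI, at 2.96, 0.554 and 2.5 CPM against 24.1, 19.5 and 20.3 CPM (-3.38, adjusted p 0.00361). Both were apart between the groups. Its paralogue Ero1l had a log2 fold change of -2.37 (adjusted p 0.0119) that was lost without HS 135 min replicate 3 (adjusted p 0.0555). Of 28 genes of ER-associated degradation, which returns misfolded proteins to the cytosol for destruction, 15 were higher at Tu 405 min and none higher at HS 135 min, with a median of -0.77 (10 to 20 and 0 to 1). Syvn1, the ubiquitin ligase HRD1, was at 284, 443 and 309.5 CPM against 1447, 1704 and 1861 CPM (-2.25, adjusted p 0.000931), and its partner Sel1l at 238, 147 and 167 CPM against 993, 798 and 861 CPM (-2.24, adjusted p 0.000829). Herpud1, an adaptor of the same ligase, was higher at Tu 405 min (log2 fold change -2.05), and had log2 fold changes against control of 2.66 at HS 135 min and 4.76 at Tu 405 min. The gene listed as C78339 was also higher at Tu 405 min (-2.31, adjusted p 0.0036).

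Of 11 tested genes for ER stress sensors and their factors, 7 were higher at Tu 405 min and none higher at HS 135 min, with a median of -0.95 (6 to 8 and 0 to 1 over the leave-one-out fits). Xbp1, the factor whose messenger IRE1 splices, was at 93.3, 50.9 and 67.1 CPM against 191, 188 and 208 CPM (-1.45, adjusted p 0.0033). Atf6 was at 77.3, 27.6 and 53 CPM against 217, 155 and 169 CPM (-1.75, adjusted p 0.00849), and Creb3l2, a related membrane-bound factor, at 69.5, 45.9 and 56.5 CPM against 172, 168 and 189 CPM (-1.60, adjusted p 0.00114). None of these 3 genes overlapped between the groups, and counts per gene do not show splicing or cleavage. Creb3l3, a liver factor, was not tested because other samples of the series had no read, and it had 34, 66 and 85 reads at HS 135 min against 6, 8 and 6 at Tu 405 min.

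The wider secretory pathway lay on the same side. Of 24 genes for translocation into the ER, 16 were higher at Tu 405 min and 1 higher at HS 135 min, with a median of -1.09, the lowest of the 39 lists (7 to 20 and 1 over the leave-one-out fits). Sec11c, a signal peptidase subunit, was at 6.22, 3.39 and 4.84 CPM against 18.8, 21.4 and 22.6 CPM (-2.10, adjusted p 0.00137), and Ssr4, of the translocon-associated complex, at 72, 55.6 and 44.7 CPM against 216, 215 and 269 CPM (-2.0, adjusted p 0.000961). No sample of one group reached the other in either gene, and Ssr4 was below control at HS 135 min (-1.39) as well as above it at Tu 405 min (0.65). The one exception was Tram2, which was higher at HS 135 min by 1.93. Sec61g was also called higher at Tu 405 min (-2.38), but ranged from 5.25 to 38.1 CPM among the heat samples, and the call was lost without HS 135 min replicate 3 or Tu 405 min replicate 2 or 3 (adjusted p up to 0.0922).

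N-glycosylation is the process that tunicamycin inhibits, and 21 of its 37 genes were higher at Tu 405 min against 1 higher at HS 135 min, with a median of -0.92 (14 to 24 and 0 to 2 over the leave-one-out fits). Gnpnat1, an enzyme of the pathway that makes the sugar nucleotide UDP-GlcNAc, was at 9.74, 2.13 and 6.49 CPM against 37.2, 43.3 and 55.4 CPM (-2.87, adjusted p 0.00514). Alg12, a mannosyltransferase of the lipid-linked precursor, was at 42.6, 15.3 and 23.2 CPM against 143, 100.4 and 113 CPM (-2.11, adjusted p 0.00488), with 104, 22.7 and 25.8 CPM in control. The groups were apart in both, although control replicate 1 of Alg12 lay within the range of the Tu samples. Among 37 genes of COPI and COPII vesicle transport 19 were higher at Tu 405 min and 3 higher at HS 135 min, with a median of -0.70 (13 to 24 and 0 to 3). Uso1, a tethering factor, Sec23b, a COPII coat subunit, and Bet1, a SNARE, were higher at Tu 405 min, with log2 fold changes of -2.26, -2.05 and -1.64.

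**Figure D3:**
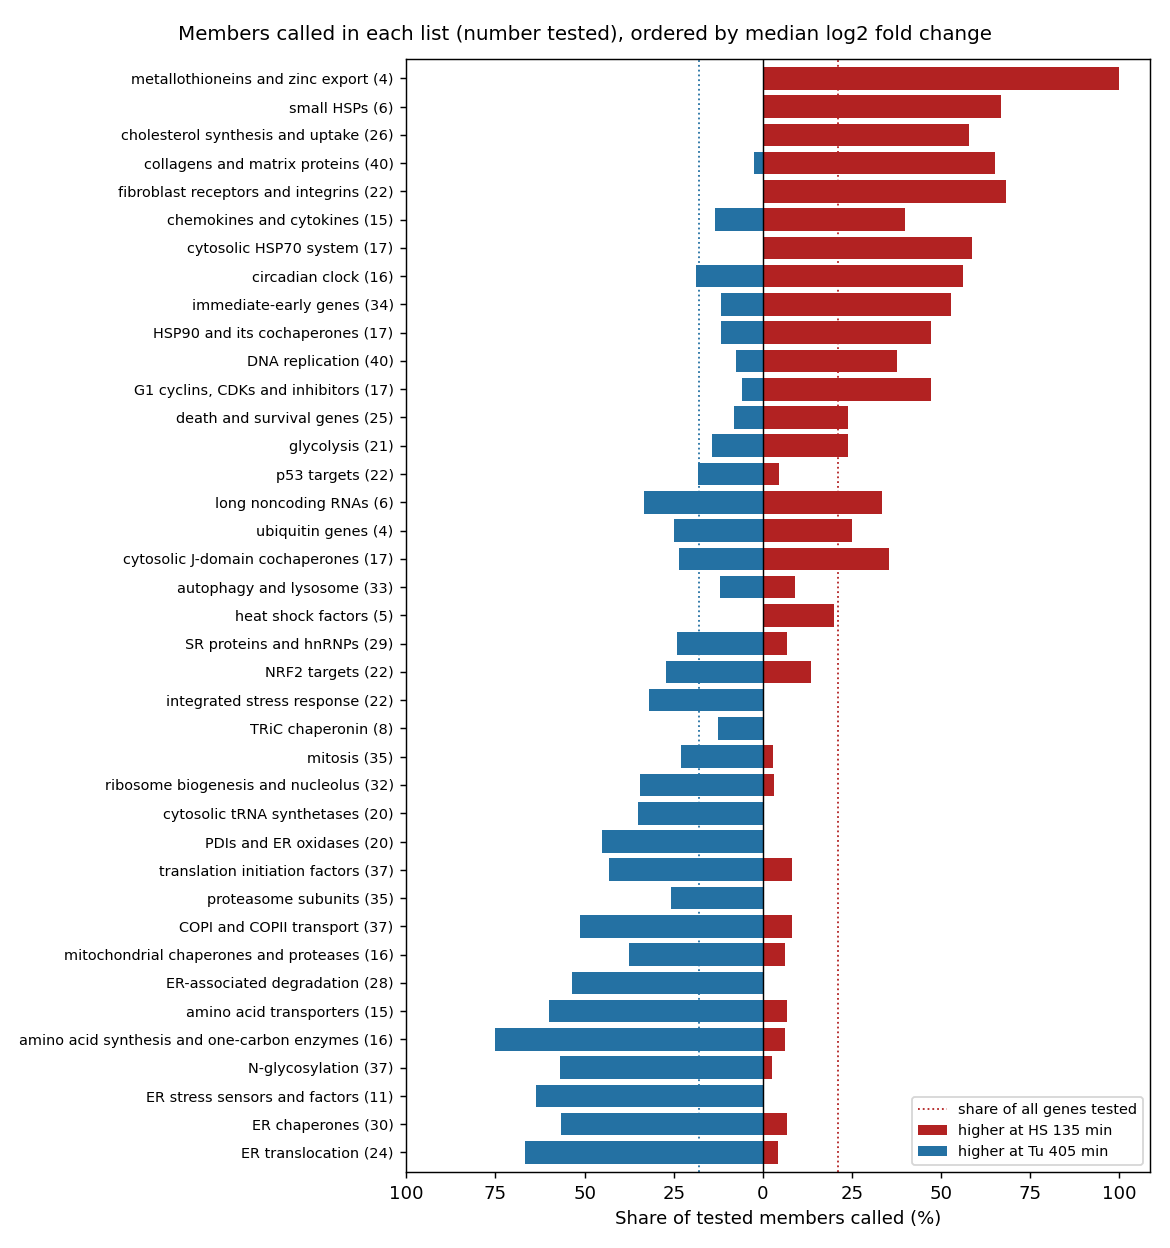
Share of tested members called in each of 39 gene lists (number tested in brackets), higher at HS 135 min to the right in red and higher at Tu 405 min to the left in blue, ordered by the median log2 fold change of the list. The dotted lines mark the shares of all 12731 genes, 21.1% and 17.9%. Metallothioneins, small HSPs and cholesterol genes stand at the top and ER translocation, ER chaperones and ER stress sensors at the bottom.

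Integrated stress response genes were, where called between the stresses, higher at Tu 405 min. Of the 22 genes 7 were higher at Tu 405 min (31.8%, against 17.9% of all genes) and none was higher at HS 135 min (21.1% of all genes). The other 15 were not called, as were 7767 of all 12731 genes. The median was -0.41, with 3 to 10 higher at Tu 405 min and 0 to 4 at HS 135 min over the leave-one-out fits. Against control, 13 were higher at HS 135 min and 18 at Tu 405 min, from tests that share the control samples and called 4.75% and 23.3% of all genes higher. Without control replicate 2 or 3 or HS 135 min replicate 3, the heat test called no more than 12 genes higher in all, and 0 with the replicate block (1448 at an unadjusted p under 0.05, by edgeR), so the 13 heat calls could not all hold in those fits and none held with the block. Atf4, the central factor of the response, was at 1060, 1884 and 1346 CPM at HS 135 min and 1382, 1427 and 1528 CPM at Tu 405 min, with 473, 489.6 and 478 CPM in control. The groups overlapped, and the log2 fold change between the stresses was 0.01 (adjusted p 0.975, 95% interval -0.56 to 0.59), beside 1.57 and 1.61 against control. Atf3, an early ATF4 target, was at 27.4, 63.9 and 61.5 CPM against 93.9, 95 and 90.4 CPM, with 1.23, 1 and 0.869 CPM in control. Its groups did not overlap, but the log2 fold change of -0.84 did not pass (adjusted p 0.0692, 95% interval -1.58 to -0.11), beside 5.62 and 6.52 against control. Chac1, a glutathione-degrading enzyme, was at 176, 437 and 387 CPM against 358, 401 and 424 CPM (-0.22, adjusted p 0.633, 95% interval -0.99 to 0.55), and its groups overlapped.

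Of the members that did differ, Ddit3 was given above. Myd116, which encodes the eIF2 phosphatase subunit GADD34, stood at 68, 185 and 149 CPM against 732, 786 and 837 CPM, with 29.9, 28.6 and 29.7 CPM in control (-2.52, SE 0.36, adjusted p 0.00235). Nupr1, a small stress-induced chromatin protein, stood at 79.2, 172 and 113 CPM against 295, 441 and 433 CPM (-1.66, SE 0.32, adjusted p 0.0069). Neither gene overlapped between the stresses, with the heat samples between control and Tu. Trib3, a pseudokinase target of CHOP, was called at -0.80 (adjusted p 0.0461) and lost this call without HS 135 min replicate 3 or any 1 Tu 405 min replicate (adjusted p up to 0.154). Of the other stress outputs, the hormone genes Fgf21 and Gdf15 were each above control in both stresses on the log2 scale, Fgf21 by 4.64 and 5.70 and Gdf15 by 5.68 and 5.13, with log2 fold changes between the stresses of -1.01 (adjusted p 0.0549) and 0.62 (adjusted p 0.334) that did not pass. Gdf15 was at 0.0179 to 0.1 CPM in control. Mean Ddit3 was 71.9 CPM in control, 188 and 359.9 CPM at HS 45 and 135 min, and 542, 208 and 2629.5 CPM at Tu 45, 135 and 405 min.

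**Figure D4:**
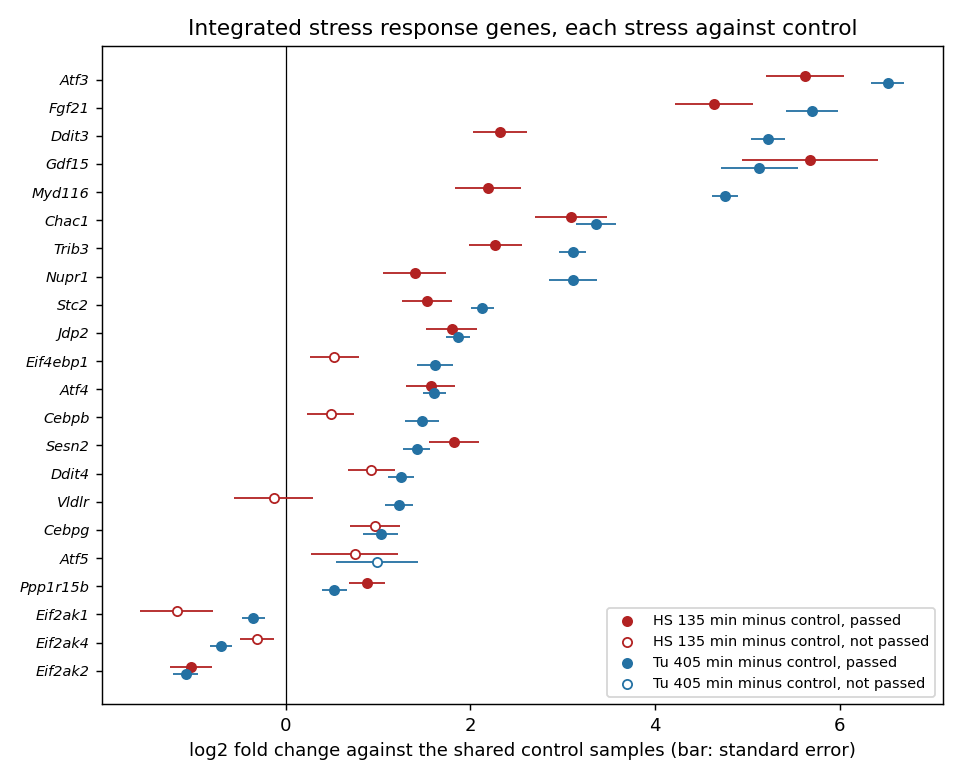
Log2 fold change of each of 22 integrated stress response genes against the shared control samples, at HS 135 min (red) and Tu 405 min (blue), with the standard error as a bar and filled points for an adjusted p under 0.05. Atf4 lies at 1.57 under heat and 1.61 under tunicamycin, while Ddit3 and Myd116 lie at 2.32 and 2.19 under heat and at 5.22 and 4.76 under tunicamycin.

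The 6 integrated stress response promoters with a C/EBP-ATF element belonged to Atf3, Chac1, Nupr1, Vldlr, Fgf21 and Jdp2, each with the site TGATGcAA. Of these, Nupr1 and Vldlr, a lipoprotein receptor gene, were called higher at Tu 405 min and the other 4 were not called. Vldlr had an adjusted p of 0.0409, and the call was lost without HS 135 min replicate 3 or any 1 Tu 405 min replicate (adjusted p up to 0.131).

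Genes of amino acid supply, many of them known ATF4 targets, were mostly higher at Tu 405 min. Of 16 tested enzymes of amino acid synthesis and one-carbon metabolism 12 were higher at Tu 405 min (75.0%) and 1 higher at HS 135 min, with a median of -0.89 (9 to 13 and 0 to 1 over the leave-one-out fits). Cth, which makes cysteine, was at 11.4, 2.33 and 6.38 CPM against 53.8, 47.5 and 49.7 CPM (-2.88, adjusted p 0.00512). Got1, the cytosolic aspartate aminotransferase, was at 109, 60.5 and 77.7 CPM against 468, 392 and 444 CPM (-2.38, adjusted p 0.000813), and Psph, which completes serine synthesis, at 75.9, 94.4 and 79.8 CPM against 243, 288 and 330.4 CPM (-1.76, adjusted p 0.000886). All 3 were apart between the groups, and at HS 135 min their log2 fold changes against control were -0.64, -0.15 and 0.37, none of which passed. Among 15 amino acid transporters 9 were higher at Tu 405 min and 1 higher at HS 135 min, with a median of -0.79 (5 to 11 and 1 to 2). Slc3a2, the heavy chain shared by several exchangers, was at 429, 576 and 446 CPM against 1903, 1947 and 1810.2 CPM (-1.94, adjusted p 0.0008), whereas Slc36a1, a lysosomal and surface proton-coupled transporter, was at 103, 107 and 92.6 CPM against 45, 39.9 and 41.5 CPM (1.28, adjusted p 0.00113). The groups were apart in both genes, in opposite directions. Of 20 cytosolic tRNA synthetases 7 were higher at Tu 405 min and none higher at HS 135 min, with a median of -0.55 (4 to 11 and 0), led by Wars at 94.1, 112 and 103 CPM against 469.9, 407 and 429 CPM (-2.06, adjusted p 0.000389).

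Cholesterol, matrix and receptor genes were mostly higher at HS 135 min, with Tu samples below control. Of 26 tested genes of cholesterol synthesis and uptake, which SREBP2 controls from the ER membrane, 15 were higher at HS 135 min (57.7%) and none higher at Tu 405 min, with a median of 1.60 (12 to 20 and 0 to 1 over the leave-one-out fits). Dhcr7, which catalyses the last step of one branch of cholesterol synthesis, was at 106, 111 and 91.3 CPM against 15.7, 14.6 and 15 CPM, with 81.4, 46.1 and 48.7 CPM in control (2.79, adjusted p 0.000367). The heat samples of Dhcr7 lay above every control sample and the Tu samples below them, with log2 fold changes against control of 0.80 (adjusted p 0.094) and -1.94. Over the list the median against control was 0.0 at HS 135 min and -1.44 at Tu 405 min. Idi1 was called at 2.66, with groups that overlapped because HS 135 min replicate 2 stood at 12.3 CPM, and the call was lost in every leave-one-out fit but that without HS 135 min replicate 2 (adjusted p up to 0.115).

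Collagens and matrix proteins are the main secretory cargo of fibroblasts, and 26 of the 40 tested (65.0%) were higher at HS 135 min against 1 higher at Tu 405 min, with a median of 1.36 (21 to 30 and 0 to 2 over the leave-one-out fits). Col3a1 was at 1814, 3586 and 2882 CPM against 362, 379.9 and 270.1 CPM, with 793, 695 and 906 CPM in control (3.06, adjusted p 0.000823). Col1a1, which encodes a chain of type I collagen, was at 12572, 26904 and 19696 CPM against 3948, 4297 and 3793 CPM, with 11440.5, 6924 and 7190 CPM in control (2.33, adjusted p 0.00215). Neither gene overlapped between the groups, and HS 135 min replicate 2 was the highest heat sample in each. Loxl2, a collagen cross-linking oxidase, was the exception at -1.15, a call lost without Tu 405 min replicate 3 (adjusted p 0.0575). Of 22 fibroblast receptors and integrins 15 were higher at HS 135 min (68.2%) and none higher at Tu 405 min, with a median of 1.2 (11 to 16 and 0 to 1). Itgb3, the integrin beta-3 chain, was at 13.8, 12.9 and 11.3 CPM against 1.18, 1.06 and 0.828 CPM (3.65, adjusted p 0.000367). Pdgfra was at 534, 238 and 338 CPM against 57.4, 49.2 and 47.2 CPM (2.87, adjusted p 0.000889) and Pdgfrb at 393, 578 and 419 CPM against 74.2, 73.8 and 68.5 CPM (2.71, adjusted p 0.000389). These growth factor receptor genes were apart between the groups, and their log2 fold changes against control were 0.22 and 0.52 at HS 135 min, which did not pass, and -2.61 and -2.15 at Tu 405 min.

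**Figure D5:**
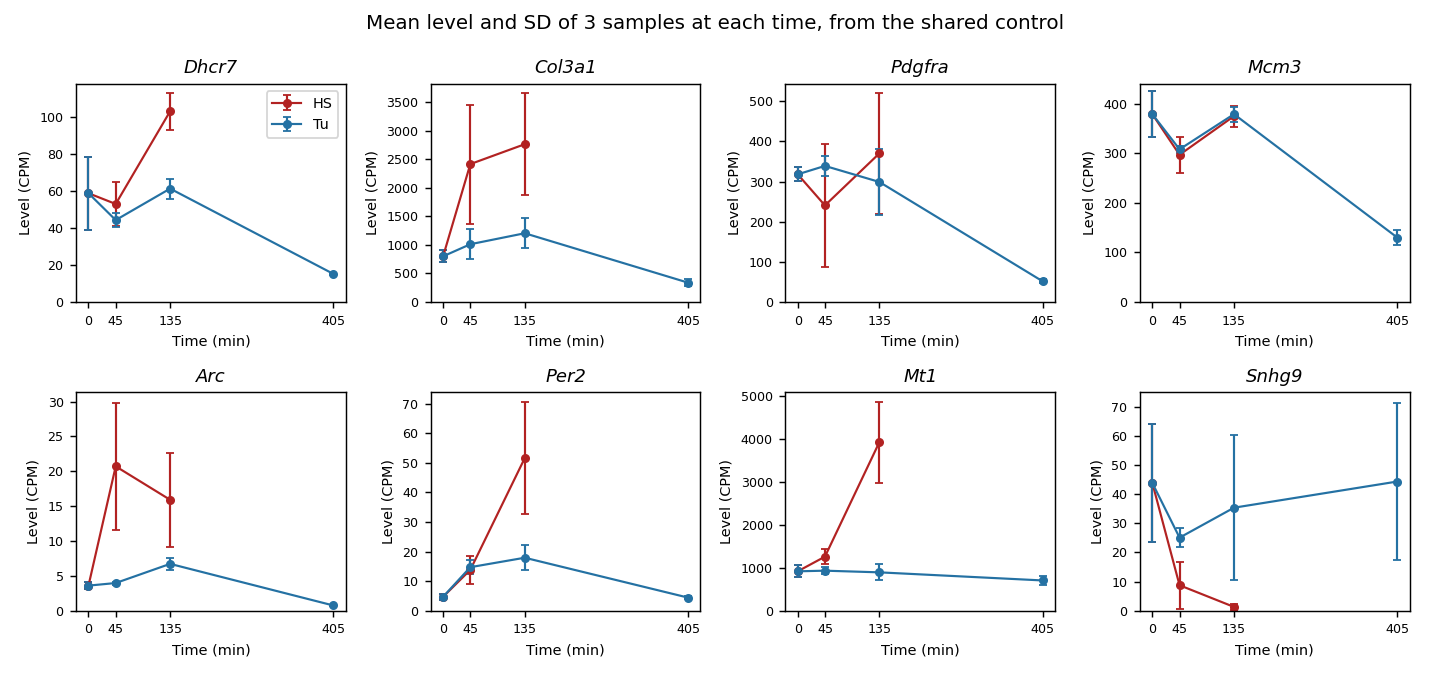
Mean level in CPM with the SD of 3 samples at each time under HS (red) and Tu (blue), starting from the shared control at 0 min, for 8 genes on linear axes. Dhcr7, Col3a1, Pdgfra, Mcm3 and Arc are lowest at Tu 405 min, Per2 and Mt1 are highest at HS 135 min, and Snhg9 is lowest at HS 135 min.

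Over time, Dhcr7, Pdgfra and Mcm3 had lower means at Tu 405 min than at Tu 135 min, and whole lists were not followed. At the shared time of 135 min, mean Dhcr7 was 103 CPM under heat and 61.2 CPM under tunicamycin, and it was 15.1 CPM at Tu 405 min. Mean Pdgfra was 370.2 and 299 CPM at 135 min and 51.3 CPM at Tu 405 min. Mean Mcm3, a subunit of the replicative helicase, was 375 and 379 CPM at 135 min and 129.9 CPM at Tu 405 min. In contrast mean Mt1 was 3929 CPM under heat and 893 CPM under tunicamycin at 135 min, and mean Hspa1b was 873 and 6.48 CPM. These levels are a description over groups of 3 samples, and differences at 135 min were not tested here.

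Metallothioneins bind zinc and copper, and all 4 tested genes of metallothioneins and zinc export were higher at HS 135 min in the full fit and in each of the 6 leave-one-out fits, with a median of 1.92. Mt1 was at 2937, 4825 and 4025 CPM against 603, 691 and 819 CPM, with 1054, 918 and 780.1 CPM in control (2.51, adjusted p 0.000851). Mt2 was at 525, 1062 and 1076 CPM against 215, 284 and 273 CPM, with 110.2, 126 and 123 CPM in control (1.81, adjusted p 0.00426), so that it was above control in both stresses (2.89 and 1.13). Slc30a1, the zinc exporter, and Mtf1, the zinc-sensing factor that regulates these genes, were higher at HS 135 min by 2.02 and 0.97. The heat and Tu samples did not overlap in any of the 4 genes, which is a description without a background share.

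Immediate-early genes, which signals switch on without new protein synthesis, were higher at HS 135 min in 18 of 34 cases (52.9%) and higher at Tu 405 min in 4, with a median of 0.77 (9 to 21 and 4 to 6 over the leave-one-out fits). Arc was at 8.68, 21.9 and 17.1 CPM against 0.646, 0.758 and 0.81 CPM, with 4.07, 3.09 and 3.61 CPM in control (4.45, adjusted p 0.000566). Fos was at 1.41, 5.34 and 4.85 CPM against 0.442, 0.6 and 0.432 CPM, with 1.31, 1.02 and 1.08 CPM in control (3.0, adjusted p 0.00478). The groups were apart in both genes, and the control samples lay between them. On the other side, Ier3, Btg2 and Nr4a2 were higher at Tu 405 min, with log2 fold changes of -2.20, -1.51 and -1.43. The orphan receptor genes lay on both sides: Nr4a3 had a log2 fold change of 4.34 (adjusted p 0.000367) and Nr4a2 of -1.43 (adjusted p 0.00288).

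Of 16 circadian clock genes 9 were higher at HS 135 min (56.2%) and 3 higher at Tu 405 min, with a median of 0.89 (7 to 10 and 1 to 3 over the leave-one-out fits). Per2, a repressor of the clock, was at 32.4, 70.1 and 52.3 CPM against 4.05, 5.01 and 4.16 CPM, with 5.77, 4.02 and 4.28 CPM in control (3.58, adjusted p 0.000566). Bhlhe40, another repressor, was at 129, 195 and 174 CPM against 29, 30 and 26.9 CPM (2.56, adjusted p 0.000407), and Cry1 at 13.8, 13.5 and 11.9 CPM against 38.1, 37.5 and 39.6 CPM (-1.53, adjusted p 0.000902). All 3 were apart between the groups, with Cry1 in the opposite direction to Per2. Among 15 chemokines and cytokines 6 were higher at HS 135 min and 2 higher at Tu 405 min, with a median of 1.0 (2 to 8 and 2 to 3). Cxcl12, which attracts blood progenitors, was at 123, 213 and 177 CPM against 19.6, 19.8 and 19.2 CPM (3.16, adjusted p 0.000371), and Ccl2, which attracts monocytes, at 214, 289 and 269 CPM against 29.4, 49.2 and 40.4 CPM (2.72, adjusted p 0.000566). Neither overlapped, while Ccl5 was higher at Tu 405 min (log2 fold change -2.75) at levels up to 3.12 CPM.

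Cell cycle genes were called in both directions. Of 40 DNA replication genes 15 were higher at HS 135 min (37.5%) and 3 higher at Tu 405 min, with a median of 0.44 (9 to 21 and 1 to 4 over the leave-one-out fits), and 30 of the 40 were below control at Tu 405 min, where 23.5% of all genes were lower. Uhrf1, which maintains DNA methylation at forks, was at 312, 463 and 389.5 CPM against 89.4, 68.2 and 51.2 CPM (2.51, adjusted p 0.000845), and Mcm3 at 357, 398 and 371 CPM against 147, 124 and 118 CPM (1.56, adjusted p 0.000829). Both were apart between the groups, and their log2 fold changes against control at HS 135 min were 0.20 and -0.01. Of 35 mitosis genes 1 was higher at HS 135 min and 8 higher at Tu 405 min (22.9%, near the 17.9% of all genes), with a median of -0.42 (0 to 4 and 4 to 14). Against control, 18 of the 35 were lower at Tu 405 min (median -0.58) and 8 at HS 135 min (median -0.99), where 23.5% and 2.64% of all genes were lower, and the 8 heat calls come from the test that kept 3 or fewer lower genes without control replicate 2 or 3 or HS 135 min replicate 3. Cdc20, the activator of the anaphase-promoting complex, was at 103, 148 and 118 CPM against 397, 416 and 399.8 CPM, with 332, 383 and 363 CPM in control (-1.69, adjusted p 0.000956). In Cdc20 the heat samples were the low group, with a log2 fold change against control of -1.54 (adjusted p 0.0146), and the Tu samples were near control (0.19). Among 17 G1 cyclins, kinases and inhibitors 8 were higher at HS 135 min and 1 higher at Tu 405 min, with a median of 0.37 (6 to 9 and 0 to 2), led by the transcription factor E2f2 (3.26) and by Ccnd3 (2.12).

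Genes of RNA and protein production were, where called, mostly higher at Tu 405 min. This held for 11 of 32 ribosome biogenesis genes against 1 higher at HS 135 min (median -0.49, 6 to 17 and 1 to 3 over the leave-one-out fits), for 16 of 37 translation initiation factors against 3 (median -0.59, 7 to 19 and 1 to 6), and for 7 of 29 SR proteins and hnRNPs against 2 (median -0.17, 5 to 9 and 0 to 3), although the last share, 24.1%, lies near the background of 17.9%. Against control, the medians of these lists in the same order were -0.37, -0.54 and -0.09 at HS 135 min and 0.25, 0.01 and 0.14 at Tu 405 min. Nop56, a core protein of nucleolar ribonucleoproteins, was at 251, 131 and 162 CPM against 752, 826 and 839 CPM (-2.13, adjusted p 0.00134). Sfrs5, an SR splicing factor, was at 43.4, 50.9 and 47.6 CPM against 237, 256 and 245 CPM, with 121, 169 and 162 CPM in control (-2.35, adjusted p 0.000367). Its 3 heat samples lay close together and below all control samples. Eif4g1, the scaffold of the cap-binding complex, went the other way, at 1229.5, 1693 and 1447 CPM against 740, 723 and 725 CPM (1.02, adjusted p 0.00565).

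Of 35 proteasome subunits 9 were higher at Tu 405 min and none higher at HS 135 min, with a median of -0.61 (3 to 15 and 0 to 1 over the leave-one-out fits), a share of 25.7% against the background of 17.9%. Against control the median of the list was -0.72 at HS 135 min and -0.02 at Tu 405 min. The Tu test called 2 subunits above control and 8 below it, where 23.3% and 23.5% of all genes were called. Psmc2, an ATPase of the regulatory particle, was at 129, 92.3 and 103 CPM against 229, 232 and 226 CPM, with 139, 225 and 226 CPM in control (-1.06, adjusted p 0.00326). Ubb, a polyubiquitin gene, was at 163, 373 and 328 CPM against 283, 287 and 303 CPM, with 148, 151 and 147 CPM in control, and did not pass (0.01, adjusted p 0.981, 95% interval -0.69 to 0.71). Rps27a was called higher at Tu 405 min (-2.20) with heat samples from 23.6 to 217 CPM and lost the call without HS 135 min replicate 3 or any 1 Tu 405 min replicate (adjusted p up to 0.115). Both have repeated or pseudogene copies among which the counting could divide reads.

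Smaller groups gave mixed counts, beside 21.1% and 17.9% of all genes. Of 22 p53 target genes 1 was higher at HS 135 min (4.55%) and 4 higher at Tu 405 min (18.2%), with a median of 0.13 (1 to 7 and 3 to 5 over the leave-one-out fits). Gadd45a, a DNA damage and stress gene, was at 46.8, 62.7 and 58.5 CPM against 351, 434 and 409 CPM, with 15.1, 12.3 and 14.9 CPM in control (-2.80, adjusted p 0.000367), whereas Cdkn1a, the kinase inhibitor p21, was at 182, 148 and 166 CPM against 96.9, 106 and 103 CPM (0.72, adjusted p 0.00811). Neither gene overlapped, and their directions were opposite. Of 22 NRF2 targets 3 were higher at HS 135 min and 6 higher at Tu 405 min (13.6% and 27.3%, 0 to 4 and 3 to 6). The same counts were 3 and 4 of 33 autophagy and lysosome genes (9.09% and 12.1%, 0 to 6 and 2 to 9). They were 5 and 3 of 21 glycolysis genes (23.8% and 14.3%, 1 to 9 and 0 to 3), and 6 and 2 of 25 death and survival genes (24.0% and 8.0%, 3 to 9 and 0 to 4). Apart from NRF2 targets at Tu 405 min, these shares lie near or under those of all genes. Bcl2l11, which encodes the death activator BIM and is itself known as a target of CHOP, was at 17.4, 21.2 and 18.3 CPM against 4.15, 4.46 and 4.19 CPM, with 16.3, 11.5 and 12.2 CPM in control (2.18, adjusted p 0.000533), and Bmf, of the same family, had a log2 fold change of 3.35 (adjusted p 0.00116). Abcc4, an organic anion exporter, and Fth1, the ferritin heavy chain, were higher at Tu 405 min, with log2 fold changes of -1.71 and -1.24.

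Other large differences were of several kinds. At HS 135 min, Clu, the extracellular chaperone clusterin, was at 46.1, 109.5 and 78.5 CPM against 2.65, 2.98 and 3.49 CPM, with 2.28, 2.3 and 2.65 CPM in control (4.71, SE 0.37, adjusted p 0.000406). The noncoding RNAs of 2 RNA-cleaving enzymes, RNase MRP (Rmrp) and RNase P (Rpph1), were at 5.71, 69.6 and 119 CPM against 0.0788, 0.3 and 1.67 CPM (6.60, SE 1.43) and at 2.48, 19.1 and 35.3 CPM against 0.0788, 0.229 and 0.72 CPM (5.82, SE 1.15). These RNAs lack a poly(A) tail, the libraries were made from poly(A) RNA, and the heat samples spread more than 10-fold. Groups without overlap were a condition for naming the genes of this paragraph and the next. Wnt1 and Olfml2a had log2 fold changes of 6.33 and 5.02 with 1 to 5 reads in each Tu sample. Wnt1 had 118, 180 and 230 reads at HS 135 min and 1, 4 and 1 in control. Olfml2a had 41, 104 and 122 reads at HS 135 min and 148, 15 and 18 in control, so control replicate 1 exceeded every heat sample. Ddc8 was at 3.83, 14.3 and 17.8 CPM against 0.41, 0.37 and 0.36 CPM (4.99, adjusted p 0.0013).

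At Tu 405 min, Avil, the actin-binding protein advillin, was at 3.35, 7.22 and 4.55 CPM against 100.4, 105 and 100.1 CPM, with 1.53, 1.27 and 1.24 CPM in control (-4.31, SE 0.32, adjusted p 0.000367). Car6, a carbonic anhydrase, was at 6.04, 1.97 and 4.78 CPM against 115, 104 and 121 CPM (-4.71, SE 0.41, adjusted p 0.000536), and Dyrk4, a protein kinase, at 0.696, 0.576 and 0.739 CPM against 12.4, 16.3 and 17.4 CPM (-4.49, SE 0.26, adjusted p 0.000367). The Tu samples of these 3 genes stood at more than 10 times every heat sample. Dnmt3l, a DNA methyltransferase cofactor best known from germ cells, was at 0.648, 0.886 and 0.985 CPM against 13.4, 15 and 16.6 CPM (-4.14). Arap3, Galntl1, Accn4 and Fam100b differed by -4.23 to -4.93, with 1 to 11 reads in each heat sample.

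The 3 named host genes of small nucleolar RNAs were higher at Tu 405 min. Snhg9 was at 2.32, 0.931 and 0.58 CPM at HS 135 min against 13.9, 53.3 and 65.9 CPM at Tu 405 min, with 65, 24.4 and 42.3 CPM in control (-5.08, SE 0.77, adjusted p 0.00276). It was below control at HS 135 min (-5.09, adjusted p 0.0122) and near it at Tu 405 min (0.04). Gas5 was at 78.8, 8.42 and 46.7 CPM against 306, 419 and 393 CPM (-3.04, adjusted p 0.0132, 0.0616 without HS 135 min replicate 3), and Snhg1 at 12.7, 1.2 and 8.72 CPM against 37.7, 32.1 and 29.8 CPM (-2.12, adjusted p 0.0463, up to 0.126, lost without HS 135 min replicate 3 or any 1 Tu 405 min replicate). In all 3 genes the groups were apart, which the rule that named Snhg9 required, with HS 135 min replicate 2 the lowest sample of Gas5 and Snhg1. Of the 6 measured long noncoding RNAs on the list, Gas5 and Snhg1 among them, 2 were higher at each side (2 and 0 to 2 over the leave-one-out fits): H19 and Malat1 were higher at HS 135 min by 2.79 and 1.79, while Neat1 and Meg3 did not pass (-0.21 and 0.39).

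Of the 12731 genes, 103 passed above control under heat and below it under tunicamycin, and 30 the reverse, all of them passing between the stresses too. Both tests against control used the same control samples, and these counts are a description without a background share. The heat test against control kept at most 12 higher and 3 lower genes without control replicate 2 or 3 or HS 135 min replicate 3. It kept none with the replicate block, so most of these patterns could not hold in those fits. Prelp, a matrix proteoglycan, was among the largest, at 19.9, 36.6 and 26.6 CPM under heat, 11.4, 5.75 and 9.59 CPM in control and 0.915, 1.2 and 1.15 CPM under tunicamycin. Its log2 fold change was 4.69 between the stresses, 1.64 against control at HS 135 min and -3.01 at Tu 405 min. In the opposite sense, Mfsd2, a lipid transporter of the ER and plasma membrane, was at 5.09, 3.61 and 3.02 CPM under heat, 9.44, 8.14 and 8.88 CPM in control and 46.9, 37.9 and 42.4 CPM under tunicamycin, with log2 fold changes of -3.41, -1.17 and 2.29. The 3 groups of each gene were apart from one another. Scand1 followed the order of Mfsd2 (-3.09, -1.78 and 1.35), as did Ptp4a1 (-3.06, -1.90 and 1.19), whose Tu and control samples overlapped.

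In the same direction under both stresses, 146 genes passed above control and 91 below it without passing between the stresses, with the same limit on the heat test. Both tests used the same control samples, so a shift in those samples moves a gene the same way in both. Alone, the heat and Tu tests called 4.75% and 23.3% of all genes higher, and 2.64% and 23.5% lower. The 146 and 91 were not compared with what these shares would give, so they do not show a shared response. The largest rises included Atf3, Gdf15 and Fgf21 above. Sema4d and Myo5c were the other large rises, on the log2 scale by 3.50 and 4.70 and by 3.46 and 3.25, from control levels under 0.1 CPM. The largest falls were in Aspn, Prl2c2 and Actg2. Actg2, a smooth muscle actin gene, was at 2.55, 1.75 and 2.78 CPM under heat, 1.72, 1.39 and 1.49 CPM under tunicamycin and 14.4, 10.6 and 9.29 CPM in control, so that both stress groups lay below every control sample. Its log2 fold change between the stresses was 0.64 (adjusted p 0.077, 95% interval 0.06 to 1.23), beside -2.27 and -2.87 against control. Aspn and Prl2c2 had -3.38 and -3.24, and -3.73 and -2.98, against control.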

How the data were processed

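Poly(A) RNA of 18 samples (6 groups of 3) was sequenced by the authors on an Illumina instrument. Per the methods, reads were aligned to mm9 and counted on RefSeq genes on the DNAnexus platform, with libraries made in 2 ways that are not tied to samples. The aligner and counter run on that platform are not given in the sources used here. The deposited files, per the file headers, hold an estimated count per gene, which the authors wrote with 4 significant digits. They also hold RPKM, which the authors computed from the counts, a score (RPKM standardized over the genes of a library by the authors), and RPKM divided by its root mean square, which the authors deposited as a normalized signal. Only the estimated counts were analysed, rounded to whole numbers.

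Genes with at least 1 read in all 18 samples were tested with edgeR 4.0.16 in R 4.3.3 (TMM scaling, quasi-likelihood test on the 6 samples compared, adjusted p under 0.05), after the code was tested on simulated data. HS 135 min and Tu 405 min were also each tested against control, and these tests share the control samples. Alternatives were a replicate block, leaving out each sample, other filters and scalings, DESeq2 1.42.0, 1 surrogate variable from sva 3.50.0, a GC offset and a minimum fold. The tests against control were repeated with the block and the left-out samples alone.

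Named genes were the 10 largest non-overlapping differences in each direction with at least 50 reads on average in the higher group, the 3 called members of each of 39 lists with the largest difference in each direction, all members of lists of up to 8 genes, the stress markers, and the 5 largest of each pattern against control. Hspa8, Bag3, Hsp90aa1, Hsp90ab1, Cryab, Hyou1, Manf, Hsp90b1, Calr, Canx, Dnajc3, Herpud1, Atf4, Chac1, Trib3, Vldlr, Col1a1, Dnajb6 and the untested Creb3l3 were named after their values were seen. Some genes that this rule names are not reported here. The comparison, members and lists were chosen with earlier results of these data known. Promoters are RefSeq GRCm38.p6, matched by symbol, and gene coordinates are those of the files.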

Additional observations from a re-analysis of the deposited data

How the results depend on the processing

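Leaving out 1 sample gave 1499 to 3482 genes higher at HS 135 min and 1131 to 3359 higher at Tu 405 min. With 1 surrogate variable the counts were 4224 and 4732, and with a log2 fold change of at least 1 the Tu count was 1338. Other filters, scalings, DESeq2 and the GC offset kept both counts within 1.5 times. Against control at HS 135 min, leaving out 1 sample gave 10 to 1535 higher and 0 to 932 lower genes, where the fit with 0 lower had 890 at an unadjusted p under 0.05. The cause was not tested. Of 197 named genes called, 134 kept the call in all 6 leave-one-out fits. Depth limits genes with few reads in the lower group, such as Hspb1, Wnt1 and Accn4.

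With the replicate block the counts were 2567 and 2430. For HS 135 min against control the block gave 0 higher and 0 lower genes by edgeR, with 1448 and 1220 at an unadjusted p under 0.05, and DESeq2 was not run there. Deviations of same-numbered HS 135 min and Tu 405 min samples correlated at 0.46, 0.419 and -0.0371. Those of replicate 1 of one group with replicate 2 of the other correlated at -0.45 and -0.421. The labels do not say whether same-numbered samples were handled together, and this was not tested.

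The genes whose log2 fold change changed sign were not called in the full fit. In the fits with the block, the GC offset and both, Aspn had 0.00, 0.39 and 0.53, Atf4 -0.03, -0.11 and -0.12, and Ubb -0.07, -0.12 and -0.17. Without a filter, with total counts, with the shared fit and with the surrogate variable, Atf4 had -0.01, -0.14, -0.02 and -0.05, and Ubb -0.01, -0.15, -0.02 and -0.08. Clca1 had -0.04 with the block and -0.11 with the surrogate variable, and Hsbp1 -0.07 with total counts. Over the leave-one-out fits the ranges were -0.43 to 0.30 for Aspn, -0.25 to 0.19 for Atf4, -0.46 to 0.07 for Cct8, -0.47 to 0.09 for Chac1, -0.57 to 0.43 for Clca1, -0.07 to 0.16 for Hsbp1, -0.79 to 0.05 for Hsf2, -0.49 to 0.09 for Hsf4, -0.18 to 0.49 for Myo5c, -0.65 to 0.02 for Neat1 and -0.23 to 0.30 for Ubb.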
